A study of Mus musculus with 6 samples.

Results

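The chemokines and chemokine receptors of the mouse aorta were described in wild-type and apoE-/- animals, taking every probe set whose platform annotation named exactly 1 gene and whose symbol was that of a chemokine ligand (Ccl, Cxcl, Xcl, Cx3cl1, Pf4) or of a receptor (Ccr, Cxcr, Xcr1, Cx3cr1, Ackr, Ccrl2). The rule used names alone and no measured value. It took 88 probe sets of 56 genes, 34 ligands and 22 receptors, of 18194 genes named on the array. RNA came from whole aortas of C57BL/6J mice, 3 samples of wild type and 3 of the apoE-/- strain on that background, all 32 weeks old, with 1 oligonucleotide array per sample. ApoE-/- mice lack apolipoprotein E and develop high plasma cholesterol and plaques, and the series compared their aortas with those of wild type. Neither diet, sex nor a further treatment was among the labels, nor whether each RNA was from 1 animal or pooled, and the p-values below rest on the scatter among the 3 arrays of each genotype, part of which could be technical.

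Chemokines are small secreted proteins that guide leukocytes along a gradient, and their families (CC, CXC, CX3C and XC) are named for the spacing of conserved cysteines near the amino terminus. They act through receptors coupled to inhibitory G proteins, and 1 ligand often serves several receptors. Atypical receptors bind ligands without signalling through G proteins and can take them up. In the artery wall, Ccl2 with Ccr2 and Cx3cl1 with Cx3cr1 are known for bringing monocytes to the site of a plaque.

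Values are probe set intensities in scaled units, which cannot be compared between probe sets, so each gene was compared only with itself across arrays. Summed intensities of some marker lists are the exception. They rest mostly on the brightest probe sets of a list and serve only to set arrays side by side. A gene was represented by its brightest probe set, and it was tested if that probe set was above the lower 40% of the array by mean log2 value (a level near 119 units). Of the 56 genes 34 were tested, 21 ligands and 13 receptors, and the other 22 lay under that level. Changes are differences in log2(intensity + 16), apoE-/- minus wild type, with standard errors from limma fitted over 13031 genes. A gene was called at an adjusted p under 0.05.

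Of the 34 tested genes 11 rose in apoE-/- aorta and none fell, against 3.15% of all genes tested that rose and 0.483% that fell. The 11 were the ligands Ccl2, Ccl6, Ccl7, Ccl8, Ccl9, Cxcl1, Cxcl16 and Cx3cl1 and the receptors Ccr2, Cxcr4 and Cx3cr1. At an unadjusted limma p under 0.05, 20 of the 34 were higher and 0 lower. Of all 13031 genes tested, 2394 were under that level in either direction. Of the 34, 10 were called and rose at least 2-fold, beside 1.89% of all genes tested. Among the 410 genes of any kind called higher, 246 rose that far. The median log2 change of the tested members was 0.54, with 26 of 34 above zero, beside -0.05 over all genes tested, of which 41.1% were above zero. Groups that did not overlap, all 3 apoE-/- arrays on one side of all 3 wild-type arrays, were found for 21 members on the high side and 1 on the low side (10.9% and 13.8% of all genes). Because 6 tested members (Ccl2, Ccl5, Ccl7, Cxcl2, Cxcl10 and Cxcr4) had a wild-type mean at or under the filter level and passed through their apoE-/- arrays, these counts describe the genes that passed and carry no weight beyond that. Leaving out wild type replicate 3 brought the number that rose to 7, apoE-/- replicate 1 to 5 and apoE-/- replicate 3 to 7. Ccl6, Ccl8, Cxcl16, Cx3cl1 and Ccr2 were called whichever array was left out.

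**Figure D1:**
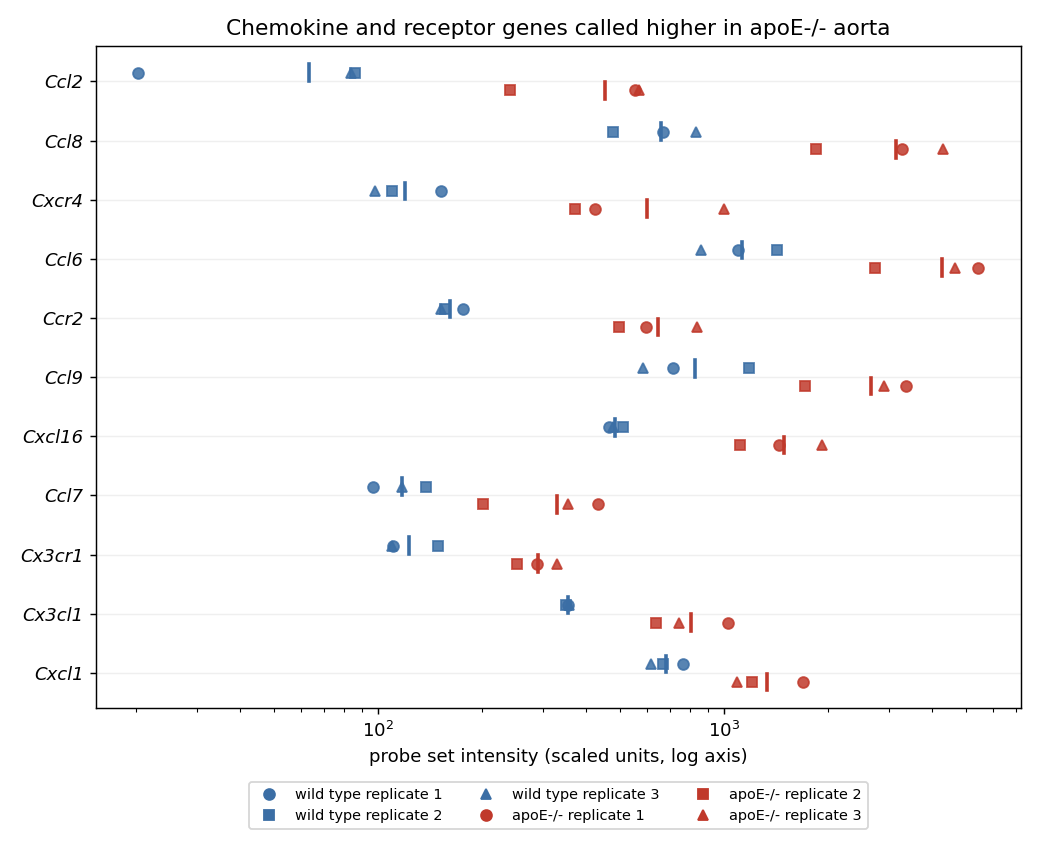
Probe set intensity on each array (horizontal log axis, scaled units) for the 11 chemokine and receptor genes called higher in apoE-/- aorta, ordered by log2 change. Symbols are single arrays (blue wild type, red apoE-/-, shape by replicate number) and vertical ticks are group means; no gene has overlapping groups, and apoE-/- replicate 2 is the lowest apoE-/- array for 10 of the 11.

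On the apoE-/- side, replicate 2 was the lowest array for 10 of the 11 risen genes, Cxcl1 being the exception, and the highest was replicate 1 for 5 and replicate 3 for 6. That array was also the apoE-/- array nearest to wild type on the first principal component, the main axis of difference among arrays (50.4% of variance). Its score was 9.77, beside 24.4 and 33.4 for apoE-/- replicates 1 and 3 and -24.9 to -18.8 in wild type. How many of all genes were lowest on it was not counted. All 9 macrophage markers tested were also lowest on replicate 2 among the apoE-/- arrays. Of these markers 7 rose and 0 fell (3.15% and 0.483% of all genes tested), with a median log2 change of 1.45. Their summed intensity was 13704 to 15047 units in wild type and 25059 to 34739 units in apoE-/-. Cd68, a lysosomal protein of macrophages, read 416.5, 475.5 and 483.7 units in wild type and 3710, 2234 and 4950 units in apoE-/-. In a bulk sample more macrophages and more RNA per macrophage cannot be told apart, and the part of macrophage content in the chemokine changes was not tested.

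Promoter sequences are given for a few of the risen genes, to show what lies upstream of genes that moved together. The RefSeq table of GRCm38.p6 held a window for 43 of the 56 genes, among them 8 of the 11 that rose, and the 250 bases before the gene start were searched on both strands. Below are Ccl8, Cxcr4 and Ccl6, which with Ccl2 had the 4 largest changes among the risen genes in the fit as reported. Their order differs with the offset, and with an offset of 1 Ccr2 (1.96 in log2) stood above Ccl6 (1.90). Ccl9 and Cxcl1 follow, added after the search because they held a kappa B match. Capitals mark matches to kappa B (GGG, any 3 bases, TTCC), AP-1 (TGA, any base, TCA), the interferon-stimulated response element (TTTC, any 2 bases, TTTC) or PU.1 (GAGGAAG).
Ccl8, chr11:82114935-82115184, plus strand: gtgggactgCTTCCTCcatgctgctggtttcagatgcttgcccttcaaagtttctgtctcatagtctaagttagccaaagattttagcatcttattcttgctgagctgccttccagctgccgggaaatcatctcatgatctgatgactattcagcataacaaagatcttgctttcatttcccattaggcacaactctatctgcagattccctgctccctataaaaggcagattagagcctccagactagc
Cxcr4, chr1:128592300-128592549, minus strand: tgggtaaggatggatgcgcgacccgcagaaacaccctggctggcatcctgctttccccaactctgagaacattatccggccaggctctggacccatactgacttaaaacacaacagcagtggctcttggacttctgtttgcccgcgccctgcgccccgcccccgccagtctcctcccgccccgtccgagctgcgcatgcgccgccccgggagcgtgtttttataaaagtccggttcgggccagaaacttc
Ccl6, chr11:83593088-83593337, minus strand: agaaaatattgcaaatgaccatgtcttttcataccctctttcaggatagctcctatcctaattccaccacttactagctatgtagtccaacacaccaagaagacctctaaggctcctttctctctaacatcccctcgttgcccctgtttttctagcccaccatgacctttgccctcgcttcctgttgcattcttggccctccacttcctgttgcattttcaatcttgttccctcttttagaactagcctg
Ccl9, chr11:83578637-83578886, minus strand: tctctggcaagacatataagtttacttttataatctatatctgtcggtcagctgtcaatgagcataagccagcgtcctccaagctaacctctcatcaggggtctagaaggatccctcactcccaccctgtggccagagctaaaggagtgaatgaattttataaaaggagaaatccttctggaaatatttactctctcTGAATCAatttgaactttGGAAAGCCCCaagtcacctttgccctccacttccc
Cxcl1, chr5:90890995-90891244, plus strand: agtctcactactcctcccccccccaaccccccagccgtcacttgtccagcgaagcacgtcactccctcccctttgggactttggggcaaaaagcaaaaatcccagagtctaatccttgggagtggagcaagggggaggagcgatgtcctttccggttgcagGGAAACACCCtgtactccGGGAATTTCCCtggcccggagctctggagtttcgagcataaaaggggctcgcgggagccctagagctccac

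The kappa B letters, bound by NF-kappa B factors, stood upstream of Cxcl1 from 71 to 62 bases before the start and again from 89 to 80 on the other strand, with a further match from 70 to 61 that overlaps the first. Ccl9 held 1 such match, from 35 to 26, and an AP-1 match from 53 to 47, and Ccl8 a PU.1 match from 241 to 235. No match to the 4 motifs was found in the windows of Cxcr4 and Ccl6. In all, 9 of the 43 member promoters held kappa B (20.9%, beside 5.31% of the genes in the table). Of the 8 risen genes with a window 2 held it, Ccl9 and Cxcl1. The other 7 of those 9 did not rise or were not tested, as was so for most of the 43. They were Ccl1, Ccl20, Ccr3, Ccr6, Cxcl2, Cxcl3 and Cxcl10. AP-1 was found in 5 of 43 (7.82% of all genes), the interferon element in 2 of 43 (3.46%) and PU.1 in 6 of 43 (12%). A match describes these letters and is not shown to be a binding site.

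Of 9 ligands that draw monocytes 7 were tested, 5 rose and 2 were not called (3.15% of all genes rose), with a median log2 change of 1.88. Ccl2, Ccl7 and the uncalled Ccl5 passed the filter through their apoE-/- arrays. Ccl2, the main ligand of Ccr2, read 20.3, 85.9 and 83.9 units on the wild-type arrays and 552.9, 240.6 and 567.8 units on the apoE-/- arrays. Its means were 63.4 ± 37.3 and 454 ± 185 units (SD, n = 3). The log2 change was 2.62 ± 0.46 (SE, adjusted p = 0.0194). The size depended on the setting, from 2.0 with an offset of 64 to 3.01 without apoE-/- replicate 2. The groups were far apart, but leaving out apoE-/- replicate 1 or 3 lost the call, the highest adjusted p over all settings being 0.101. Ccl7, a further Ccr2 ligand, read 97.1, 138.3 and 117.6 units against 432.8, 201.9 and 355.2, so that apoE-/- replicate 2 stood nearest to wild type. Its log2 change was 1.32 ± 0.28 (SE, adjusted p = 0.0375), which leaving out any array other than apoE-/- replicate 2 took over the threshold (adjusted p up to 0.154).

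Ccl8, which in the mouse acts on Ccr8, read 669.3, 479.3 and 829.9 units in wild type and 3274, 1843 and 4300 units in apoE-/-, with means of 660 ± 176 and 3139 ± 1234 units (SD, n = 3). The lowest apoE-/- array was above the highest wild-type array by more than the whole wild-type range, and the log2 change was 2.17 ± 0.30 (SE, adjusted p = 0.00634). Ccl6, a myeloid ligand of Ccr1, read 1096, 1421 and 860.0 units against 5441, 2742 and 4656 units. That gave a log2 change of 1.88 ± 0.26 (SE, adjusted p = 0.00631), and its second probe set changed by 1.92 ± 0.27. Ccl9, also a Ccr1 ligand, went from 827 ± 315 to 2664 ± 849 units (SD, n = 3), or 1.68 ± 0.30 in log2 (SE, adjusted p = 0.020), and its other probe set by 1.5 ± 0.26. The arrays of Ccl9 read 713.7, 1183 and 583.9 units in wild type and 3370, 1722 and 2900 units in apoE-/-, and its call was lost when replicate 1 or 3 of either genotype was left out (adjusted p up to 0.0940).

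Ccl5 and Ccl4, which also attract T cells, were the tested members of this group that did not pass. Ccl5 read 244.3, 12.3 and 151.6 units in wild type and 285.5, 331.8 and 751.7 units in apoE-/-. The groups did not overlap, but wild type replicate 2 was far under its fellows, and the log2 change of 2.01 ± 0.74 (SE) had an adjusted p of 0.199. It was 1.05 without wild type replicate 2 and 2.65 without wild type replicate 1, not called in either case. Ccl4 read 395.9, 352.1 and 370.2 units against 625.1, 435.9 and 548.7 units, a narrow separation of 0.49 ± 0.15 in log2 (SE, adjusted p = 0.138) that was called only without apoE-/- replicate 2 (adjusted p = 0.0466).

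Ccl12 and Ccl3, the other members of this group, were under the filter and were not tested with the rest. Ccl12, a Ccr2 ligand of the mouse, read 23.0, 21.7 and 45.9 units in wild type and 501.5, 268.2 and 411.9 units in apoE-/-. Ccl3, a ligand of Ccr1, read 9.8, 23.3 and 29.5 units against 239.7, 101.7 and 420.5 units. Both were dim on every wild-type array, where they are not shown to be above background, and higher on every apoE-/- array, though Ccl3 on apoE-/- replicate 2 was itself under the filter level. Fitted with no filter on low values, both were called higher (adjusted p = 0.00456 for Ccl12 and 0.0345 for Ccl3), where 1.76% of the 18193 genes rose. No size is given for such dim genes, since the fitted value depends on the offset of 16.

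Many CC ligand genes are neighbours on chromosome 11, where the GRCm38.p6 gene table has a pair of unbroken runs of them. One run, Ccl2, Ccl7, Ccl11, Ccl12, Ccl8 and Ccl1, held 3 genes that rose, 1 tested gene that was not called (Ccl11) and 2 under the filter. The other, Ccl5, Ccl9, Ccl6, Ccl3 and Ccl4, held 2 that rose, 2 not called and 1 under the filter. Over all genes tested 3.15% rose. Ccl2 and Ccl7 of the first run and the uncalled Ccl5 of the other passed the filter through their apoE-/- arrays, so these counts are a description.

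**Figure D2:**
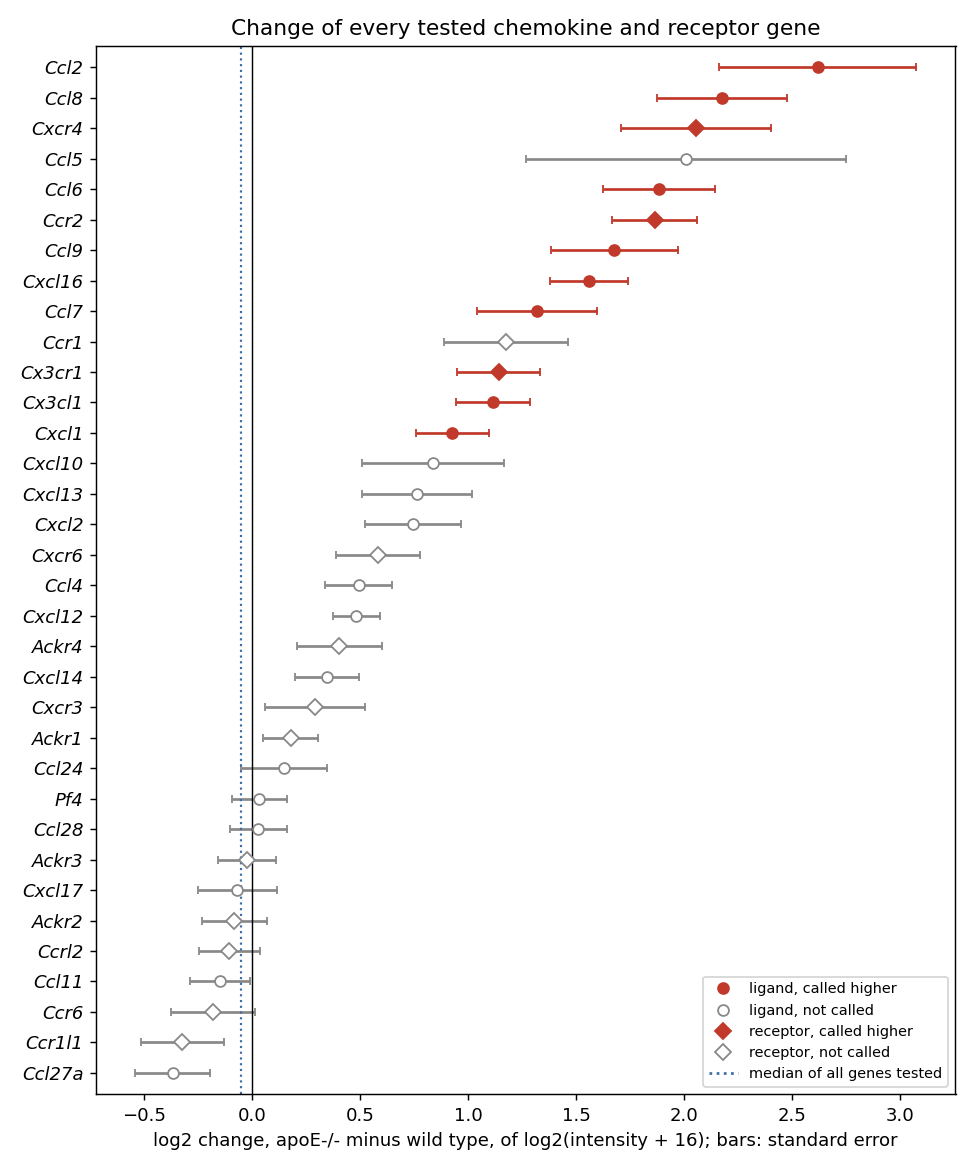
Log2 change (apoE-/- minus wild type, horizontal) with its standard error for each of the 34 tested chemokine and receptor genes; circles are ligands, diamonds receptors, filled red those called higher, and the dotted line is the median of all genes tested (-0.05). Called genes run from Cxcl1 at 0.93 to Ccl2 at 2.62, and Ccl5 at 2.01 has the widest error.

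Among the other CC ligands, which serve eosinophils, skin, gut and lymphocytes, no tested gene was called. Ccl11 (eotaxin, which attracts eosinophils through Ccr3) averaged 803 ± 84.2 units in wild type and 727 ± 114 in apoE-/- (SD, n = 3), with a log2 change of -0.15 ± 0.14 (SE, adjusted p = 0.622). The arrays overlapped, and Ccl11 lies between Ccl7 and Ccl12 in the run above. Ccl24, also a Ccr3 ligand, and Ccl28, a mucosal ligand of Ccr10, had log2 changes of 0.15 ± 0.20 and 0.03 ± 0.13 (SE). Ccl27a, of skin, had a log2 change of -0.37 ± 0.17 (SE, adjusted p = 0.305), and its probe set can also detect near-identical copies. Ccl17, a dendritic cell ligand of Ccr4, was under the filter at 20.6, 67.7 and 54.9 units in wild type and 187.7, 172.4 and 181.8 units in apoE-/-. Its apoE-/- arrays were close together and all above wild type, and it was called higher with no filter (adjusted p = 0.0461). Ccl22, which shares Ccr4, was dim at 31.2, 63.4 and 81.4 units against 24.9, 15.6 and 28.8, and did not pass with no filter (adjusted p = 0.242).

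Of the CXC ligands that attract neutrophils through Cxcr2, Cxcl1 rose. Its representing probe set read 764.5, 667.8 and 614.5 units in wild type and 1695, 1206 and 1090 units in apoE-/-, a log2 change of 0.93 ± 0.17 (SE, adjusted p = 0.0223). The groups were apart, with apoE-/- replicate 3 the lowest, and the call was lost without wild type replicate 2, wild type replicate 3 or apoE-/- replicate 1 (adjusted p up to 0.0830). A further Cxcl1 probe set, whose name marks no cross-matching family, went from 183 to 1229 units and changed by 2.60 ± 0.27 in log2 when every probe set was tested (SE, adjusted p = 0.00165), so the size of the Cxcl1 change depends on the probe set.

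Cxcl2, the neighbour of Cxcl1 with the same receptor, read 94.1, 103.7 and 109.8 units against 240.6, 152.8 and 164.5 and was not called (0.75 ± 0.22 in log2, SE, adjusted p = 0.122). Cxcl5 was under the filter at 40.9, 36.6 and 75.5 units in wild type and 271.1, 124.7 and 252.6 in apoE-/-. The groups were apart, and with no filter its adjusted p was 0.0534, just over the threshold. Pf4, the platelet factor, averaged 3698 ± 610 units in wild type and 3763 ± 321 in apoE-/- (SD, n = 3), with a log2 change of 0.03 ± 0.13 (SE, adjusted p = 0.917). The 5 platelet markers tested had a median log2 change of -0.39, none called, and the 5 neutrophil markers one of 0.20, none called. S100a8 and S100a9, abundant in neutrophils, had log2 changes of 0.26 ± 0.38 and 0.06 ± 0.34 (SE).

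Interferon-induced ligands of Cxcr3, which draw T cells, gave no call. Cxcl10 read 128.1, 52.0 and 138.8 units in wild type and 223.8, 199.6 and 152.1 units in apoE-/-, without overlap but with a change of 0.84 ± 0.33 in log2 (SE, adjusted p = 0.223). Cxcl9 and Cxcl11 were under the filter, Cxcl9 at means of 104 and 77.6 units and Cxcl11 at 63.2 and 59.3 units in wild type and apoE-/-. A second, dim Cxcl9 probe set went the other way, from 78.0 to 105 units, with apoE-/- replicate 1 alone high at 226.3. The 4 T and NK cell markers tested had a median log2 change of 0.24 and none was called. Cd3e, a chain of the T cell receptor complex, was under the filter in both genotypes, at 54.6 ± 10.1 and 70.5 ± 24.7 units (SD, n = 3). Cd3d, dimmer still, read 14.6, 14.2 and 11.1 units against 25.2, 30.4 and 99.1, without overlap (5.19% of genes under the filter on that side). Cd3g was tested and overlapped (0.36 ± 0.34 in log2, SE), and some other markers under the filter averaged lower in apoE-/-.

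Cxcl16 and Cx3cl1, the ligands made with a membrane anchor, both rose. Cxcl16, the ligand of Cxcr6 and also a receptor for oxidised lipoprotein, read 467.3, 509.9 and 477.8 units in wild type and 1446, 1117 and 1922 units in apoE-/-. The wild-type arrays were close together, far under apoE-/-, and the log2 change was 1.56 ± 0.18 (SE, adjusted p = 0.00305), with 2.46 ± 0.23 for its other probe set. Cx3cl1 (fractalkine, presented by endothelium and other wall cells) read 354.0, 350.5 and 356.8 units against 1027, 635.6 and 741.5 units. Its log2 change was 1.12 ± 0.17 (SE, adjusted p = 0.0112), and a further probe set gave 1.11 ± 0.22. Of the 7 endothelial markers tested, 6 were not called and Emcn rose (named after its value was seen), beside 3.15% of all genes tested. Their median log2 change was 0.28. Cxcl14, a ligand of stroma, averaged 315 ± 9.88 and 408 ± 58.6 units (SD, n = 3) and was not called (0.35 ± 0.15 in log2, SE, adjusted p = 0.259), and Cxcl17, of mucosal surfaces, had a log2 change of -0.07 ± 0.18.

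Cxcl12 and Cxcl13 organise lymphoid tissue and attract through Cxcr4 and Cxcr5. Neither was called on the probe set that stands for it, but a second probe set of each passed when every probe set was tested. Cxcl12 read 6223, 5131 and 5657 units in wild type and 8820, 7158 and 7826 units in apoE-/-, with no overlap, and its log2 change of 0.48 ± 0.11 (SE) had an adjusted p of 0.0513. A second, dimmer Cxcl12 probe set changed by 1.09 ± 0.14 (SE, adjusted p = 0.00497). Cxcl13 read 347.4, 208.2 and 365.3 units against 471.6, 416.1 and 708.1 (0.77 ± 0.25 in log2, SE, adjusted p = 0.159), and its second probe set changed by 1.66 ± 0.28 (SE, adjusted p = 0.0150). That second probe set read 115.2, 104.9 and 73.1 units in wild type, all under the filter level. It passed the filter through its apoE-/- arrays, so its call is a description only. Of the 4 B cell markers tested, for cells that follow Cxcl13, none was called, and their median log2 change was 0.09.

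**Figure D3:**
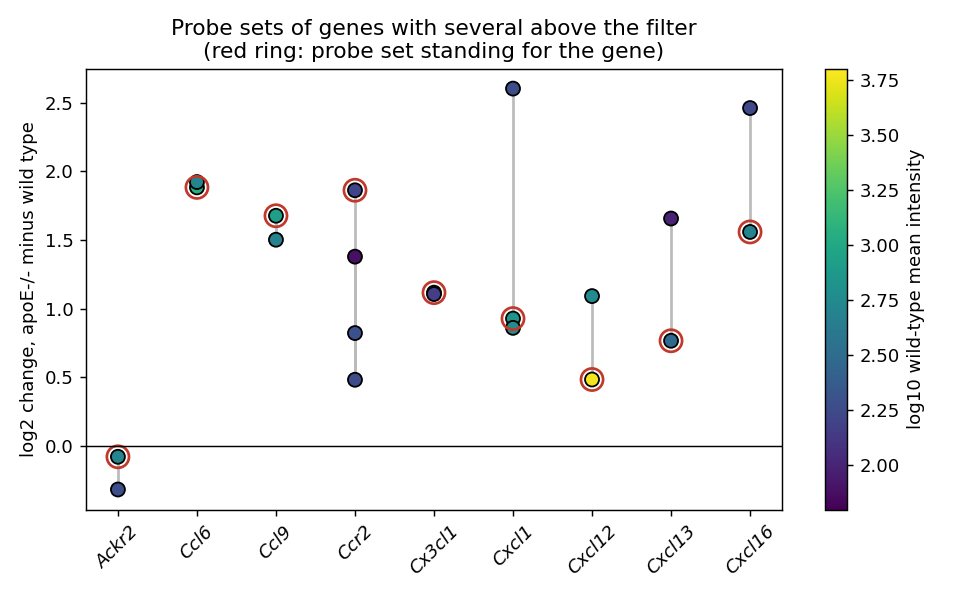
Log2 change (vertical, apoE-/- minus wild type) of every probe set above the filter for the 9 genes with several, coloured by the log10 of the wild-type mean intensity; the red ring marks the probe set standing for the gene. All 9 genes have their probe sets on one side of zero, and Cxcl1 spans 0.86 to 2.60.

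Of the 9 tested genes with several probe sets above the filter, all 9 had differences in one direction across them, and 6 of these genes were among the 11 that rose. With every probe set tested on its own, 20 of 46 member probe sets rose and 0 fell (2.44% and 0.281% of all probe sets). Some of the 46 passed the filter only through their apoE-/- arrays, so the count is a description. They were those of Ccl2, Ccl5, Ccl7, Cxcl2, Cxcl10 and Cxcr4, the second of Cxcl13 and a dim one of Ccr2.

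Of the 22 receptors 13 were tested and 3 rose, Ccr2, Cxcr4 and Cx3cr1 (3.15% of all genes tested rose). Cxcr4 passed the filter through its apoE-/- arrays, so the count is a description. Ccr2, the monocyte receptor for Ccl2, Ccl7 and Ccl12, read 176.6, 156.2 and 152.7 units in wild type and 597.8, 499.4 and 834.5 units in apoE-/-. The wild-type arrays were tight and the groups far apart, and the log2 change was 1.86 ± 0.20 (SE, adjusted p = 0.00202). The other Ccr2 probe sets above the filter gave 1.38 ± 0.22, 0.82 ± 0.20 and 0.48 ± 0.30, and with the median of the 4 the gene was not called (adjusted p = 0.103). The probe set that gave 1.38 averaged 76.3 units in wild type, under the filter level, and passed through its apoE-/- arrays. Ccr1, which binds Ccl6, Ccl9 and Ccl3, read 114.3, 140.5 and 236.1 units against 403.7, 270.2 and 477.1 units. Its groups did not overlap, but wild type replicate 3 came near apoE-/- replicate 2, and 1.18 ± 0.29 in log2 (SE, adjusted p = 0.0658) did not pass. Ccr6, of lymphocytes and dendritic cells, had a log2 change of -0.18 ± 0.19, and Ccr1l1, a Ccr1-like receptor, read 176.8, 180.6 and 191.1 units against 148.3, 169.9 and 115.7 (-0.32 ± 0.19, SE, adjusted p = 0.424). On the probe sets that stand for the genes, Ccr1l1 was the tested member whose apoE-/- arrays were all lower.

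Cxcr4, the receptor of Cxcl12 on leukocytes and progenitors, read 152.8, 109.8 and 98.0 units in wild type and 424.7, 371.1 and 1004 units in apoE-/-. All 3 apoE-/- arrays were above wild type, with replicate 3 more than any other, and the log2 change was 2.06 ± 0.35 (SE, adjusted p = 0.0166). Without wild type replicate 3 or apoE-/- replicate 1 it was not called (adjusted p up to 0.0634). Cx3cr1, the fractalkine receptor of monocytes and macrophages, read 110.7, 149.0 and 110.2 units against 288.9, 252.6 and 330.0 units. The log2 change was 1.14 ± 0.19 (SE, adjusted p = 0.0159), and the call was lost when replicate 1 or 3 of either genotype was left out (adjusted p up to 0.0815). Cxcr6, the receptor of Cxcl16 on T cells, read 148.3, 129.3 and 126.4 units against 202.0, 177.5 and 255.5 and was not called (0.58 ± 0.19 in log2, SE, adjusted p = 0.159). Cxcr3 overlapped between genotypes, with a log2 change of 0.29 ± 0.23.

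None of the 5 atypical receptors was called. Ackr3, which binds Cxcl12 beside Cxcr4, averaged 3998 ± 586 units in wild type and 3933 ± 551 in apoE-/- (SD, n = 3), and the difference in log2 was -0.02 ± 0.14 (SE, adjusted p = 0.949). Ackr1, which binds many inflammatory ligands on vessel endothelium and red cells, had a log2 change of 0.18 ± 0.13. Ackr2, a scavenger of CC ligands, had one of -0.08 ± 0.15, and Ccrl2, which binds chemerin, one of -0.10 ± 0.14. A second Ackr2 probe set above the filter read lower on all 3 apoE-/- arrays and was not called (-0.32 ± 0.18 in log2, SE, adjusted p = 0.432). Ackr4, a scavenger of Ccl19, Ccl21 and Ccl25, read 117.4, 125.0 and 116.6 units against 198.2, 155.5 and 141.4, apart by a small gap and not called (0.40 ± 0.20 in log2, SE, adjusted p = 0.321). A p over the threshold does not show that these genes were equal in both genotypes.

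Ligands were set beside their known receptors in 38 pairs over 18 receptors, and both genes were tested in 11 of them. In 3 pairs both genes rose, which were Ccl2 with Ccr2 (2.62 and 1.86 in log2), Ccl7 with Ccr2 (1.32 and 1.86) and Cx3cl1 with Cx3cr1 (1.12 and 1.14). Only the ligand rose in 4 pairs, Ccl6, Ccl7 and Ccl9 with Ccr1, and Cxcl16 with Cxcr6. Only the receptor rose in 1 pair, Cxcl12 with Cxcr4, where the changes were 0.48 and 2.06. Neither gene was called for Ccl5 with Ccr1, Cxcl10 with Cxcr3 and Cxcl12 with Ackr3. These classes depend on the probe set. Cxcl12 was just over the threshold (adjusted p = 0.0513 in limma), and its second probe set passed (adjusted p = 0.00497). Ccr2 did not pass with the median of its probe sets (adjusted p = 0.103). Whether ligand and receptor differed from each other in change was not tested, and pairs that share a gene are not independent. Ccl2, Ccl7 and Cxcr4, on which several of these calls rest, passed the filter through their apoE-/- arrays, so the tally is a description. The other 27 pairs had a gene under the filter or without a probe set of its own.

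**Figure D4:**
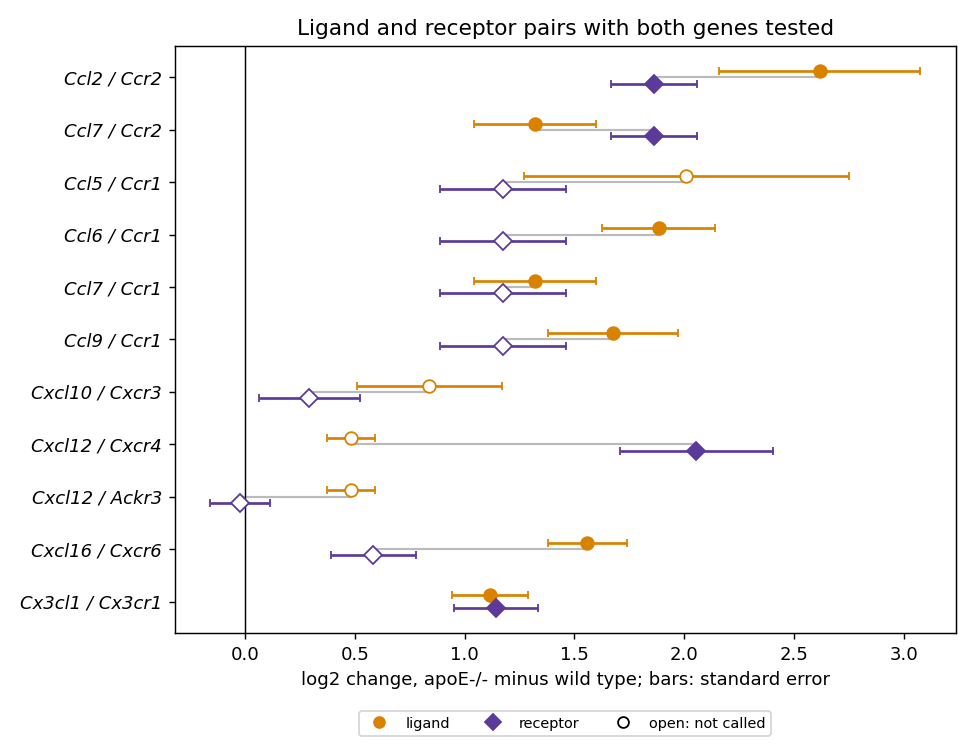
Log2 change (apoE-/- minus wild type, horizontal, with standard error) of the ligand (orange circle) and the receptor (purple diamond) in the 11 pairs with both genes tested; filled symbols were called higher, open ones were not called. Both symbols are filled for Ccl2 and Ccl7 with Ccr2 and for Cx3cl1 with Cx3cr1.

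The 22 genes under the filter read between 7.9 and 501.5 units on single arrays. On the high side the groups did not overlap for 4 of them (Ccl12, Ccl3, Cxcl5 and Ccl17, described above), and on the low side for 4 (Ccr9, Ccl22, Ccr3 and Cxcl9), beside 5.19% and 9.20% of the 5162 genes under the filter. Only the brightest probe set of each gene was counted here, and the second of Cxcl9 averaged higher in apoE-/-. Ccr9, the receptor of gut-homing lymphocytes for Ccl25, read 89.0, 103.7 and 107.1 units against 40.2, 50.8 and 12.8 on its brightest probe set, but others of its 5 dim probe sets averaged higher in apoE-/-, and it did not pass with no filter (adjusted p = 0.122). Ccr3, the eosinophil receptor, read 28.8, 33.1 and 13.6 units against 12.2, 11.2 and 9.6. Ccr7, the receptor that leads dendritic cells to lymph nodes, read 19.9, 10.2 and 12.3 units against 7.9, 16.8 and 69.4, so that apoE-/- replicate 3 alone stood out. Cxcr2, the receptor of Cxcl1, averaged 29.5 ± 5.42 and 30.8 ± 5.38 units (SD, n = 3). Of the other genes under the filter, Ccl1, Ccl20, Ccl25, Cxcl3, Cxcl11, Cxcl15, Xcl1, Ccr4, Ccr8, Ccr10, Cxcr5 and Xcr1 overlapped between genotypes, and none was called with no filter. No call of presence or absence can be made from this table.

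**Figure D5:**
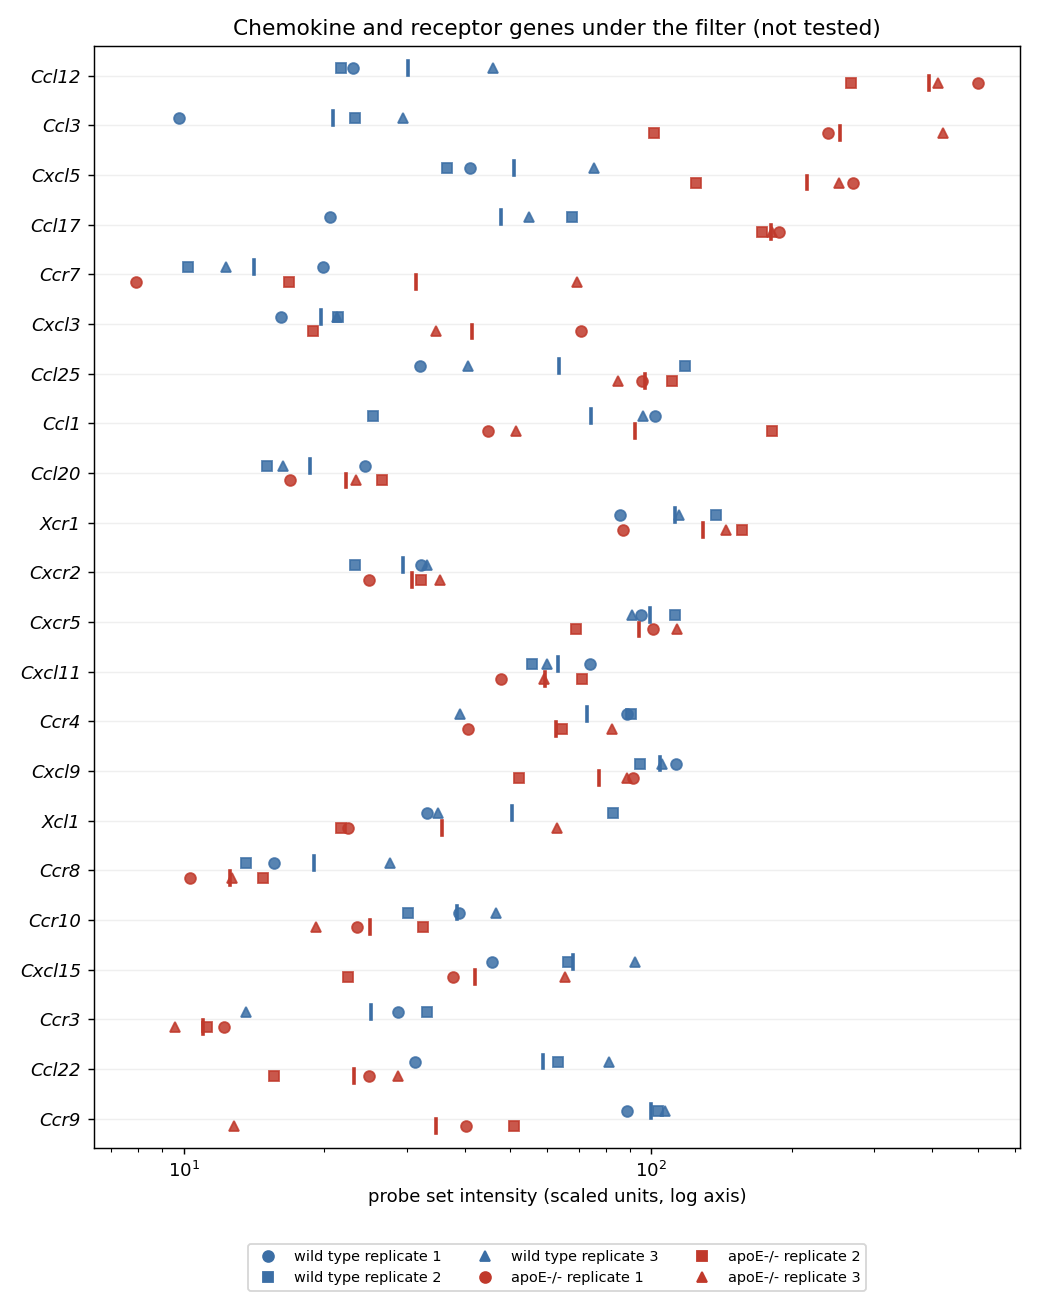
Probe set intensity on each array (horizontal log axis, scaled units) for the 22 chemokine and receptor genes under the filter, ordered by the ratio of the group means; symbols are single arrays (blue wild type, red apoE-/-) and vertical ticks group means. Ccl12, Ccl3, Cxcl5 and Ccl17 at the top have all apoE-/- arrays above wild type, and most of the rest overlap.

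Genes that carry the receptor signal or switch chemokine genes on were counted from 3 lists of 59 genes, 51 of them tested. Of these 11 rose and 0 fell, beside 3.15% and 0.483% of all genes tested, with a median log2 change of 0.15 beside -0.05. Among 25 tested G proteins and effectors 6 rose, namely Dock2 (1.54 ± 0.20 in log2, SE) and Prex1 (0.98 ± 0.19), which activate Rac, Rac2 (1.52 ± 0.23), the Rac of blood cells, Was (1.18 ± 0.23), which drives actin branching, and the kinases Fgr (1.10 ± 0.23) and Ptk2b (0.68 ± 0.11). Of 13 genes of receptor desensitisation 2 rose, Rgs1 (1.39 ± 0.18), which shortens G protein signalling, and the arrestin Arrb2 (0.83 ± 0.17). Of 13 transcription factors and regulators 3 rose, Irf8 (1.43 ± 0.23), Nfkbiz (1.04 ± 0.19) and Stat3 (0.43 ± 0.09). Adjusted p-values of the 11 genes lay between 0.00534 for Dock2 and 0.0392 for Fgr. Dock2, Rac2, Was and Fgr are made mainly by blood cells, and the part of the macrophage content given above in this count was not tested. Leaving out wild type replicate 1, 2 or 3 gave counts of 6, 7 and 4, and leaving out apoE-/- replicate 1 or 3 gave 2 and 4.

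Facts of the arrays bear on all of this. Array medians lay between 178 and 195.5 units, and the correlation between arrays within a genotype was r = 0.966 to 0.972 across probe sets. Apoe itself read 5686, 5625 and 4309 units in wild type and 239.5, 56.3 and 462.1 units in apoE-/-. The smooth muscle markers that define the aortic wall were bright on every array, with summed intensities of 54306 to 63306 units in wild type and 48435 to 60173 in apoE-/-, and none of 6 was called. Skeletal muscle markers summed to 900, 1081 and 15670 units in wild type, replicate 3 standing far apart, and to 472 to 586 units in apoE-/-. Of the 3 of these tested, Ckm was called lower (0.483% of all genes tested fell). Its probe set read 432.2, 467.7 and 454.6 units in wild type, so it did not share the height of replicate 3. Adipocyte markers summed to 13763, 26075 and 15885 units in wild type and 11172 to 17784 in apoE-/-, and none of 4 tested was called. The part of such other tissue in the chemokine values was not tested. The beta-actin 3′ to 5′ ratio, a sign of RNA quality, was 1.16 to 1.21 in wild type and 1.15 to 1.16 in apoE-/-.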

How the data were processed

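Total RNA of 6 aorta samples was measured on Affymetrix mouse arrays, 1 per sample. The deposited table gives 1 intensity per probe set, on a linear scale, for 45101 probe sets. Tested on the values, every array has a mean of 500.002 after trimming 2% at each end, so the authors had scaled the deposited intensities to one level. The software is not given in the sources used here, and the table holds no detection calls.

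The members and gene lists were chosen with earlier results of these data known. Gene names come from the platform annotation of 2016, updated by gene identifier through the RefSeq table of GRCm38.p6 (34754 of 34958 probe sets with 1 symbol matched). The 64 control probe sets and the lower 40% by mean of log2(intensity + 16) over all arrays were left out (27022 kept), and each gene was represented by its kept probe set of highest mean (13031 genes). The test was limma 3.58.1's moderated comparison (R 4.3.3, two-sided, genotype as the only term, eBayes allowing an intensity trend), with Benjamini-Hochberg adjustment over all genes and calls at an adjusted p under 0.05. Precision is limited by 3 arrays per genotype, for which no exact permutation test can give a two-sided p under 0.1. By the naming rule any member could be named, called genes of each signalling list up to 6, and the first 3 of each marker list; Ccl9 and Cxcl1 promoters, Emcn and Ppbp fall outside it. Alternatives changed the offset (1 or 64), the scaling (quantile, median centring), the filter (none, 60%, or, added after seeing the data, the linear mean), the trend, the choice of probe set (all, or their median) and the arrays (weighted, blocked by replicate number, or each left out), or asked for 2-fold.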

Additional observations from a re-analysis of the deposited data

How the results depend on the processing

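No tested member changed sign while called, under any alternative. The count of members that rose, 11, lay between 8 and 14 under other settings and between 5 and 14 when 1 array was left out, and no member was called lower under any of them. It was 14 with the filter on the linear mean, a choice added after seeing the data, which brought in Ccl3, Ccl12 and Cxcl5, and 13 with no filter, which brought in Ccl3, Ccl12 and Ccl17 and lost Ccl7. The lower 60% filter tested 20 members and called 8. Cxcl12 was called with quantile normalization, array weights, the 60% filter, the median of probe sets and without apoE-/- replicate 2, and Ccr1 with median centring and without wild type replicate 3 or apoE-/- replicate 2. Without an intensity trend 9 members rose, Ccl7 and Cxcl1 being lost. The count of signalling genes that rose, 11, was 7 with no filter, 6 without an intensity trend, 7 with a 2-fold minimum, and between 2 and 15 with 1 array left out. The cause of these differences was not tested. Replicate numbers are shared between the genotypes, and the deviations of same-numbered arrays correlated at r = -0.10, -0.18 and -0.05 over genes. With 3 arrays per genotype such values cannot show whether same-numbered arrays were handled together, and the labels do not say. With the replicate block 8 members rose, Ccl7, Ccl9 and Cx3cr1 not passing, and 8 signalling genes rose. Dim genes are limited by background, which the table does not give.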

Other observations

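Some chemokine probe sets match several annotated genes and were not counted above. The probe set shared by Ccl19 and its near-identical copies read 1956, 1200 and 1401 units in wild type and 2048, 1639 and 1847 units in apoE-/-, with overlapping groups. That of the Ccl21 genes, ligands of Ccr7 in lymphoid tissue, read 628.3, 611.6 and 737.2 units against 569.0, 580.0 and 1177 units, so that apoE-/- replicate 3 alone was high, the array on which Ccr7 was also highest. A probe set of the Ccl27 genes averaged 759 ± 67.5 units in wild type and 635 ± 63.2 in apoE-/- (SD, n = 3), and a further one 662 ± 204 and 581 ± 29.8.

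Ppbp, the platelet CXC ligand that the naming rule does not take, read 3891, 1280 and 1700 units in wild type and 1562, 1298 and 1305 units in apoE-/-, with wild type replicate 1 alone high, and was named after its values were seen. The second Cxcr6 probe set, under the filter, read 2.1, 10.1 and 3.3 units in wild type and 66.1, 44.7 and 112.8 units in apoE-/-. The second Cxcl14 probe set, also under the filter, read 4.0, 5.5 and 4.5 units against 82.3, 10.6 and 132.0 units. Itgax, an integrin of dendritic cells and activated macrophages, rose by 3.31 ± 0.28 in log2 (SE, adjusted p = 8.55e-04), while Flt3, Zbtb46 and the other dendritic cell genes tested were not called.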
